A study of Mus musculus with 56 samples.

Results

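Between genes in mouse bone marrow-derived macrophages (BMDMs), 589 regions carried a peak of RNA polymerase II phosphorylated at serine 5 (RNAPII-pS5) after 1 hr of IL-4 and none before it. They were selected on the presence of RNAPII-pS5 peaks in 4 chromatin immunoprecipitation sequencing (ChIP-seq) lists. Peaks of the 4 lists that overlapped by at least 1 bp were merged, and a region was kept when both IL-4 lists and neither untreated list held a peak and when every peak in it was annotated as intergenic. The 589 regions are 1.43% of the 41245 merged regions and 4.32% of the 13628 merged regions that were intergenic throughout. Regions outside genes with a peak in all 4 lists (steady, 6139) and regions with a peak in both untreated lists and neither IL-4 list (lost, 918) served for comparison. The cells came from wild-type C57BL/6 mice aged 8 to 12 weeks and were differentiated for 6 days in medium conditioned by L929 cells. For each of 8 antibodies (RNAPII-pS5, RNAPII-pS2, H3K27Ac, p300, PU.1, HDAC1, HDAC2, and HDAC3) there were 2 untreated libraries (ctrl) and 2 libraries after 1 hr of IL-4 at 20 ng/ml (1hIL4). A separate experiment measured RNAPII-pS5, RNAPII-pS2, and p65 in 4 groups of 2 libraries, namely cells left without either agent (ctrl_ctrl), cells pretreated with IL-4 for 24 hr (24hIL4_ctrl), cells given lipopolysaccharide (LPS) at 100 ng/ml for 1 hr (ctrl_1hLPS), and cells given both in that order (24hIL4_1hLPS). All of these cells carried the same genotype, so a change with IL-4 cannot be assigned to STAT6 from these files alone.

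IL-4 is a type 2 cytokine that acts through Janus kinases and the transcription factor STAT6, which enters the nucleus and drives alternative macrophage polarization. RNAPII phosphorylated at serine 5 of its C-terminal repeats is the initiating form, serine 2 phosphorylation (RNAPII-pS2) marks elongation, and RNAPII-pS5 away from promoters is found at active enhancers, where short RNAs are made. The acetyltransferase p300 and its product H3K27Ac mark active enhancers, PU.1 is the lineage-determining factor of macrophages, HDAC1, HDAC2, and HDAC3 remove acetyl groups within corepressor complexes, and p65 is the NF-κB subunit that LPS sends to chromatin.

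The number of RNAPII-pS5 peaks ran from 30420 to 35424 in the 1 hr experiment and from 14476 to 22149 in the separate experiment, and stands in for the depth, which is unknown. Of 20 macrophage genes, 14 to 16 had an RNAPII-pS5 peak within 1000 bp of a transcription start site in the 1 hr libraries and 9 to 14 in the separate experiment. Of 28 markers of other blood and stromal cells, 0 or 1 did. In 1 of the p300 libraries, ctrl replicate 1, 44787 peaks were listed against 66710 to 69360 in the other 3. In the RNAPII-pS2 files at 1 hr, ctrl files name their peaks after IL-4 and IL-4 files after ctrl, and the labels were kept. For HDAC3, the ChIP methods of the study give the catalogue number of the H3K27Ac antibody and its reagent list gives that of an HDAC3 antibody, and which made the HDAC3 lists was not tested.

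STAT6 dimers recognize a pair of TTC and GAA half-sites with 4 bases between them. The letters TTCNNNNGAA were searched on both strands in the central 300 bp of each region, in the sequence of GRCm38.p6 (mm10, RefSeq). The 6 windows below belong to the 6 highest-scoring regions that held such a match. They are shown because they let the letters be seen at the regions with the most RNAPII-pS5, and the capitals mark the match. All are written 5′ to 3′ on the plus strand and named by the gene with the nearest start site.
Gpc1, chr1:92749473-92749772: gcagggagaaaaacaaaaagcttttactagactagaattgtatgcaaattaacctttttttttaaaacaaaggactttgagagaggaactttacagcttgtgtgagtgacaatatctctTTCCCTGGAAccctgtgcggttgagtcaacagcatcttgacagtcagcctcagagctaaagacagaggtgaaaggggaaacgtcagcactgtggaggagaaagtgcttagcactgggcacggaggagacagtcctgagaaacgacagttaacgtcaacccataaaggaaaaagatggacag
Adipoq, chr16:23159834-23160133: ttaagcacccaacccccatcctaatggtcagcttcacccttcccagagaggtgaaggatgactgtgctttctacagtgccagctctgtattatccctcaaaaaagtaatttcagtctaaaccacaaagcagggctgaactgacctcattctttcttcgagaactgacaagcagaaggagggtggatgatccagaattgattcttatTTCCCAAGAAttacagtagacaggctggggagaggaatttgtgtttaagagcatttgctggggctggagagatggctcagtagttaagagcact
Pim3, chr15:88855604-88855903: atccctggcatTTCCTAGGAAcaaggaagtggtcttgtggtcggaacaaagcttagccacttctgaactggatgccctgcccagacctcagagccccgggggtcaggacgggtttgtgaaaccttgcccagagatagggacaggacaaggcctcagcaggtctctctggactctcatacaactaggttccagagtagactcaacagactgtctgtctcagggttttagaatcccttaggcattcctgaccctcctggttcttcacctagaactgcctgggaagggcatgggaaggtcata
1700021F07Rik, chr2:173452086-173452385: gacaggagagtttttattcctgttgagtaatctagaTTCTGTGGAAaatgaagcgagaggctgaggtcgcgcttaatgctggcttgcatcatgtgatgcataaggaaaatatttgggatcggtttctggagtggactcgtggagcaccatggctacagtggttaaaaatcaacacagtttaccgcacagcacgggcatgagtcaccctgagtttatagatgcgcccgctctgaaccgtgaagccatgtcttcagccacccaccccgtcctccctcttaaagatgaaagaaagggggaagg
Timp2, chr11:118360609-118360908: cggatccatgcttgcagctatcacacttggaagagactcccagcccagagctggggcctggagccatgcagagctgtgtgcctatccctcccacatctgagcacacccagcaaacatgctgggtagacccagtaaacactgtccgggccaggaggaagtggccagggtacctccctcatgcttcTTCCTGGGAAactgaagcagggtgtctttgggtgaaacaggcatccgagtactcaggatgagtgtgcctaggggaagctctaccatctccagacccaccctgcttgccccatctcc
Rgs1, chr1:144283636-144283935: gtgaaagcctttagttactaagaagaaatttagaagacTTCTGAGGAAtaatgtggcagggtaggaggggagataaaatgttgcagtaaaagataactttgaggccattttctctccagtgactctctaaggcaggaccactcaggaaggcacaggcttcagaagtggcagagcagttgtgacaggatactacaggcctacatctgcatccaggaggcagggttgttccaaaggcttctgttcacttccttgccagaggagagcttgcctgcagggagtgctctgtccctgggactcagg
Each window held 1 match, and all of them are intergenic by the annotation.

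Over all 589 gained regions, 232 windows (39.4%, 95% Wilson interval 35.5 to 43.4) held the STAT6-type letters. The share was 9.28% in steady regions, 4.47% in lost regions, and 8.99% over all merged regions with a sequence. The spacing with 3 bases between the half-sites, TTCNNNGAA, which other STAT factors prefer, was present in 17.7% of gained, 11.2% of steady, and 9.29% of all windows, and 38 gained windows held both spacings. Letters of the other factors were much closer to the background. The PU.1 letters GAGGAAGT stood in 8.32% of gained windows against 8.98% of all, the AP-1 letters TGACTCA or TGAGTCA in 12.2% against 10.5%, the C/EBP letters TTGCNNAA in 16% against 14.2%, and the RUNX letters TGTGGTT in 13.4% against 8.9%. In 193 gained windows none of these letters was found, which says only that they are not in those 300 bp. The STAT6-type matches lay near the middle of the regions. They fell within 100 bp of the midpoint on either side in 17.5% of gained regions per 100 bp, against 1.2% to 3.4% in steady and lost regions.

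**Figure D1:**
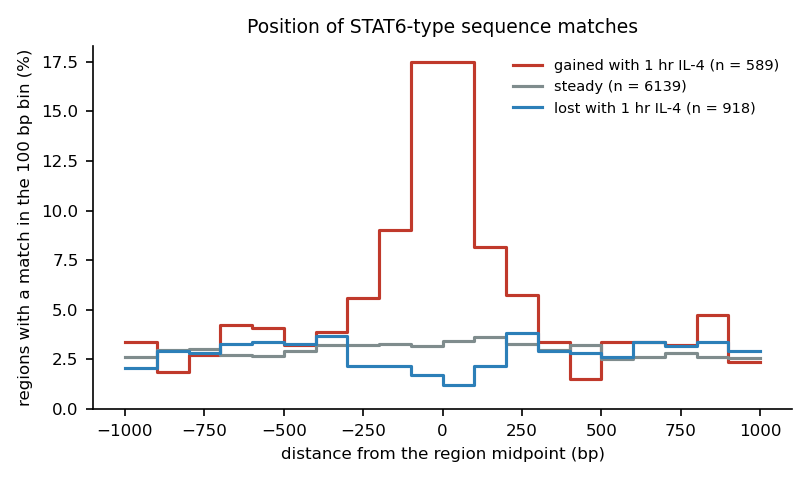
The percentage of regions with a STAT6-type match (y axis) in bins of 100 bp by distance from the region midpoint in bp (x axis), for gained (red), steady (grey), and lost (blue) intergenic RNAPII-pS5 regions. The gained regions reach 17.5% in both central bins, and the other sets stay between 1.2% and 3.4% there.

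The gained regions were low and narrow peaks for the most part. Peak scores are −log10 values of the significance that the peak caller assigned, and their median in the gained regions was 7.31 and 6.67 in the IL-4 replicates, against 14.9 and 13.3 in steady regions of the same lists. The lower of both scores ran from 1.77 to 46.71 with a median of 5.76 (quartiles 4.23 and 8.37). It was under 5 in 230 regions, at least 10 in 107, and at least 20 in 17. In 527 regions (89.5%) the scores of both replicates lay within 2-fold of each other. The median width was 433 bp (range 217 to 3392), between that of lost regions (407 bp) and steady regions (731 bp).

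Since presence of a peak chose the regions, the values at the border are a description. Just inside, the lowest scores were 1.77, 1.9, 2.23, 2.29, and 2.32. Just outside stood 1217 intergenic regions with a peak in a single IL-4 list, whose score had a median of 4.44 and reached 15.3, and 630 with a peak in both IL-4 lists and 1 untreated list, whose untreated score had a median of 6.09 and reached 28.1. Another 826 regions met the same peak pattern but had at least 1 peak annotated to a gene. Each of the 4 libraries bears on the number of gained regions, which was 1109 and 716 with untreated replicate 1 and 2 left out of the rule and 1079 and 1404 with IL-4 replicate 1 and 2 left out.

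The gained regions lay at a median of 28.5 kb from the nearest transcription start site, compared with 23.7 kb for steady and 27.8 kb for lost regions. Of the gained regions, 122 (20.7%) were within 10 kb, 367 (62.3%) between 10 and 100 kb, and 100 (17%) farther away. Endogenous retroviral long terminal repeats (LTRs) covered the annotated position in 15.6% of gained, 13.4% of steady, and 15.6% of lost regions, and CpG islands in 1.7%, 5.96%, and 0.109%. The median gap to the nearest untreated RNAPII-pS5 peak was 6.42 kb, with 57 gained regions within 500 bp of one and 229 farther than 10 kb from any. Every chromosome held at least 1, from 2 on Y to 45 on chromosome 10.

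Gained regions that lay within 20 kb of each other formed 50 clusters with 111 regions. The largest held 5 regions in 39.9 kb of chromosome 14 beside Ang2, Ear4, and Ear14, which belong to a multigene family of secreted ribonucleases, and a sixth region lay near Ear11 beyond it. A cluster of 4 lay in 16.6 kb near 4930413G21Rik. Clusters of 3 lay near Vrk1 (a chromatin-associated kinase), Pim3 and Creld2, Adipoq (adiponectin), C330024C12Rik, Secisbp2l, and Fcrls (a scavenger receptor of the Fc receptor-like family). The files named 490 genes as nearest to the 589 regions, and C330024C12Rik, with 5 regions, and 4930413G21Rik and 9130015L21Rik, with 4 each, were named most often.

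The strongest gained region, chr1:92749328-92749918, lay 82.1 kb upstream of Gpc1, which encodes the heparan sulfate proteoglycan glypican-1. Its RNAPII-pS5 score was 48.4 and 46.7 with IL-4. The p300 score was 5.56 and 22.7 in the untreated and 223 and 216 in the IL-4 libraries, the PU.1 score 5.29 and 5.64 untreated and 38.6 and 40.4 with IL-4, and H3K27Ac regions were listed with IL-4 alone, at 35.8 and 38.9 normalized tags. HDAC1 (9.52 and 6.32), HDAC2 (17.6 and 14.5), and HDAC3 (26.7 and 21.9) likewise had peaks in both IL-4 libraries and in no untreated library. For each of these antibodies both IL-4 libraries lay above both untreated ones, and RNAPII-pS2 was listed in the libraries labelled untreated alone, at 30.7 and 24.1.

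The region at chr16:23159503-23160465 lay 13.4 kb downstream of the start of Adipoq. H3K27Ac was 87.7 and 80.5 with IL-4 and not listed before it, p300 was 4.88 and 25.5 untreated and 224 and 199 with IL-4, and PU.1 was listed with IL-4 alone, at 19.6 and 26.3. At chr15:88855183-88856326, 6.44 kb upstream of Pim3, a serine/threonine kinase, p300 was 3.32 and 30.8 untreated and 278 and 278 with IL-4, and HDAC3 was 41.8 and 30.1 with IL-4 alone. Both regions had p300 beforehand and PU.1, H3K27Ac, HDAC2, and HDAC3 in the IL-4 libraries only.

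The region 34.7 kb upstream of Rgs1, a regulator of G-protein signaling, had the highest H3K27Ac level with IL-4 among the 6 regions whose windows are printed. At chr1:144282988-144284584, H3K27Ac was 19.3 and 12.5 untreated and 190 and 196 with IL-4, p300 was 5.33 and 13.7 untreated and 299 and 277 with IL-4, and PU.1 was 4.95 and 7.21 untreated and 37.3 and 43.4 with IL-4. Near Gpr65, a proton-sensing receptor, chr12:98311360-98312365 had no H3K27Ac or PU.1 untreated and H3K27Ac of 87.7 and 83 and PU.1 of 49 and 45.6 with IL-4. Near Timp2, a metalloproteinase inhibitor, chr11:118360499-118361019 had p300 with IL-4 alone (79.8 and 66.3) and no H3K27Ac in any library. In all 3 regions the IL-4 libraries lay above the untreated ones for p300 and PU.1.

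Of the 12 highest-scoring regions, only the second, chr3:85412762-85413853, had no peak of a chromatin factor or of H3K27Ac. It lay 95.8 kb from the start of 1700036G14Rik, had RNAPII-pS5 of 49.6 and 42.6, and carried no H3K27Ac, p300, PU.1, or HDAC peak in any library. It had instead the highest RNAPII-pS2 scores of the 12, 102 and 112 in the libraries labelled untreated against 4.8 in replicate 2 alone of those labelled IL-4. Its RNAPII-pS5 in the separate experiment was 5.16 and 3.17 in ctrl_ctrl and 15.7 and 13.6 in 24hIL4_ctrl, with no peak after LPS.

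The other regions of the top 12 followed the first in p300, PU.1, and H3K27Ac, but not all of them in the deacetylases. Near Htr1f, a serotonin receptor gene, chr16:65214312-65215317 had H3K27Ac of 63.2 and 68.7 untreated and 244 and 266 with IL-4. Near Atxn7l3b, chr10:112835214-112835960 had PU.1 of 15.7 and 4.65 untreated and 77 and 81.8 with IL-4, and HDAC3 with IL-4 alone (25.7 and 30.7). Near Hmgb1, a chromatin protein and alarmin, chr5:149067872-149068718 had p300 of 4.29 and 19.2 untreated and 177 and 211 with IL-4 and no RNAPII-pS5 in the separate experiment. Near Klhl25, chr7:75904794-75905876 had PU.1 with IL-4 alone (27.4 and 50.8) and p300 of 12 and 30.4 untreated and 283 and 284 with IL-4. For each value above, both IL-4 libraries lay above both untreated ones. HDAC1 overlapped between the groups near Atxn7l3b (5.63 and 7.12 untreated, 18.25 and 6.26 with IL-4). Near Hmgb1 it overlapped too (6.8 in untreated replicate 1 alone, 8.79 and 6.61 with IL-4). The same held near 1700021F07Rik (6.5 in untreated replicate 1 alone, 9.6 and 3.87 with IL-4). There HDAC3 was already listed at 16.38 and 3.13 untreated, compared with 21.21 and 19.75 with IL-4. HDAC3 near Hmgb1 was listed in replicate 1 alone of each group, at 8.55 untreated and 14.05 with IL-4.

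**Figure D2:**
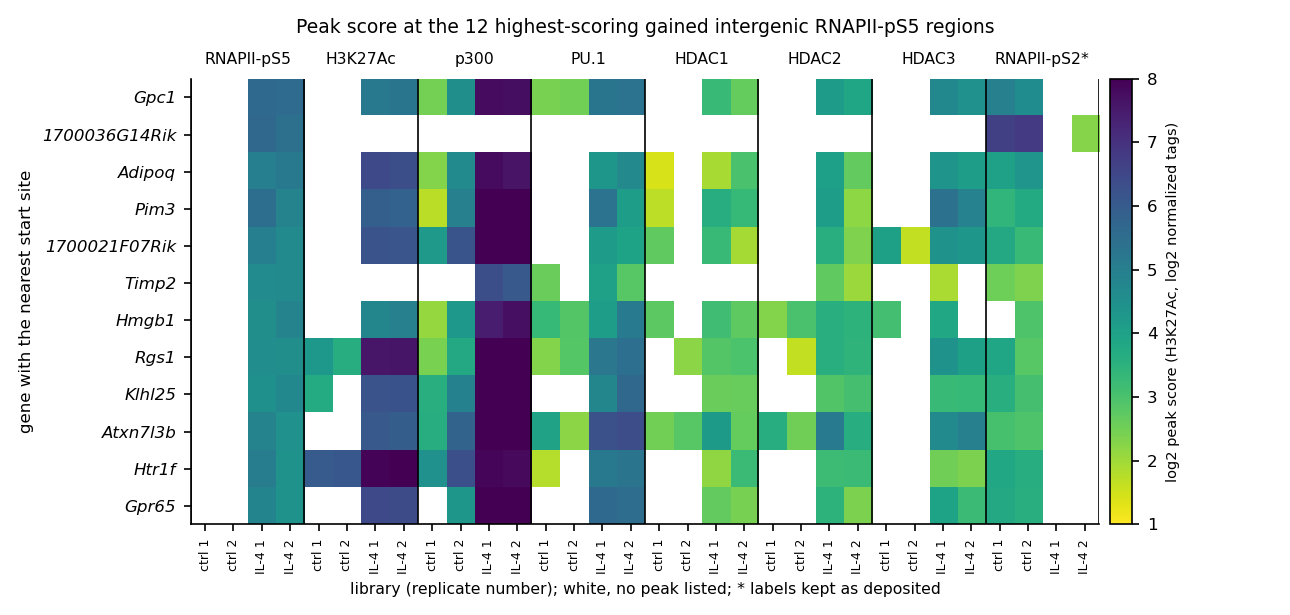
Log2 peak scores (log2 normalized tags for H3K27Ac) at the 12 highest-scoring gained regions (rows, by the gene with the nearest start site) in each 1 hr library (columns, 2 untreated and then 2 IL-4 libraries per antibody), with white for no peak. The RNAPII-pS5 columns are white in the untreated libraries because the regions were selected that way, and p300, PU.1, and HDAC2 are listed in both IL-4 libraries for all rows but 1700036G14Rik.

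For the tests below, the highest score of any peak overlapping a region was taken, and a region without a peak received the lowest score of that antibody. Libraries were centred on the regions listed in all of them, so that a difference is relative to those regions, and a difference against libraries without a peak depends on that floor. Differences were fitted with limma over all merged regions with a peak in at least 2 libraries, and called at a Benjamini-Hochberg adjusted p of at most 0.05. A gained region listed with IL-4 alone passes that filter through the IL-4 libraries, so the counts of calls describe only the regions that passed. The share of regions with a peak was compared over libraries by an exact permutation test, in which 2 against 2 cannot give a two-sided p below 0.33.

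H3K27Ac was higher after 1 hr of IL-4 at most of the gained regions where it could be tested. Of the 589 regions, 28.2% and 27.2% had an H3K27Ac region in the untreated libraries and 49.1% and 48.2% with IL-4, a difference of 21 percentage points (exact permutation test, p = 0.33). In steady regions the share moved by −0.277 points. The filter kept 285 gained regions, of which 236 were called higher and 6 lower, where over all regions tested 19.4% were called higher and 23.3% lower. H3K27Ac was listed in both IL-4 libraries and neither untreated library at 108 gained regions (18.3%), compared with 2.07% of all merged regions. These 108 passed the filter through the IL-4 libraries and were compared with the floor. At the 131 gained regions with H3K27Ac in every library, its median level was 25.2 and 23.7 normalized tags untreated and 64.9 and 66 with IL-4, and 122 of them were higher. The count of 236 was 107 without IL-4 replicate 1 and 112 without IL-4 replicate 2.

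p300 was the factor most often in place beforehand at the gained regions, but less often than over all merged regions. The untreated libraries listed it at 63.9% and 76.5% of all merged regions (replicate 1 and 2). It was listed at 55.5% and 70.1% of the gained regions in the untreated libraries, the lower share in the replicate with few p300 peaks, and at 82.3% and 83.0% with IL-4 (difference 19.9 points, exact permutation test, p = 0.33). The share in steady regions moved by 3.44 points. At the 324 gained regions with p300 in all 4 libraries, its median score was 10.4 and 36.2 untreated and 128 and 126 with IL-4, and after centring on the shared regions the median log2 difference was 1.74, compared with −0.11 over all 25990 regions listed throughout. Of these 324 regions, 302 were higher with IL-4. Of the 485 regions tested, 277 were called higher and 1 lower (5.15% and 0.865% over all regions). The count was 269 without the untreated replicate that stands apart, 371 without the other untreated replicate, and 0 without either IL-4 replicate, where 1 IL-4 library was left. p300 was listed with IL-4 alone at 73 gained regions (12.4%, against 2.39% of all), which passed the filter through the IL-4 libraries.

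PU.1 was listed at 46.5% and 42.6% of gained regions in the untreated libraries and at 68.4% and 73.2% with IL-4 (difference 26.2 points, exact permutation test, p = 0.33), while the share in steady regions moved by 0.676 points. The 109 regions (18.5%) with PU.1 in both IL-4 libraries and neither untreated library compare with 1.79% of all merged regions. Where PU.1 was present in every library (215 gained regions), its median score was 17 and 9.51 untreated and 38.6 and 38.4 with IL-4, and 182 of the regions were higher after centring. With limma no region of any kind passed the adjusted threshold for PU.1. At an unadjusted p of at most 0.05, 228 of 410 gained regions tested were higher and 0 lower. Over all regions tested, 6.94% were higher and 1066 of 24079 lower. The 109 regions with PU.1 in the IL-4 libraries alone passed the filter through those libraries and were compared with the floor. The unadjusted counts are therefore a description.

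The deacetylases were listed at more gained regions with IL-4 than without. HDAC1 was listed at 25% and 19.5% untreated and 48.4% and 43.8% with IL-4, HDAC2 at 24.6% and 20.9% against 61.8% and 52.8%, and HDAC3 at 12.6% and 7.64% against 44.5% and 39.7%. The differences were 23.9, 34.6, and 32 percentage points (exact permutation test, p = 0.33 for each). Over steady regions the share with HDAC1 moved the other way, by −9.29 points, and those with HDAC2 and HDAC3 by 1.34 and 6.36 points. HDAC1 was listed in both IL-4 libraries and neither untreated library at 92 gained regions (15.6%, against 1.25% of all), HDAC2 at 144 (24.4%, against 2.8%), and HDAC3 at 135 (22.9%, against 3%). No region of any kind passed the adjusted threshold of limma for these 3 antibodies. At an unadjusted p of at most 0.05, 128 of 260 gained regions tested were higher for HDAC1 (3.92% of all), 175 of 314 for HDAC2 (7.2%), and 155 of 216 for HDAC3 (13.5%), and 7, 3, and 1 were lower. Over all regions tested, 1939 of 22784, 969 of 19663, and 472 of 10961 were lower. The 92, 144, and 135 regions listed with IL-4 alone passed the filter through the IL-4 libraries and were compared with the floor. The unadjusted counts are therefore a description. Where a deacetylase was present in every library, at 57, 83, and 29 gained regions, the median centred log2 difference was 0.67, 0.54, and 0.46.

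**Figure D3:**
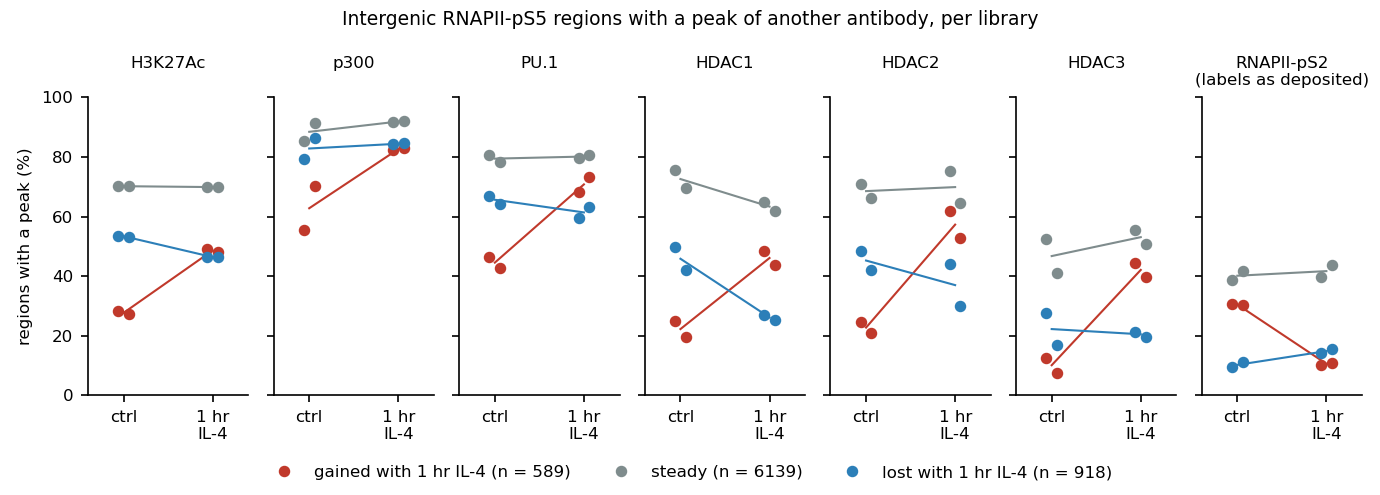
The percentage of gained (red), steady (grey), and lost (blue) intergenic RNAPII-pS5 regions with a peak of each other antibody (y axis) in the 2 untreated and 2 IL-4 libraries (x axis); points are libraries and lines join the group means. For the first 6 antibodies both IL-4 points of the gained regions lie above both untreated points, and for RNAPII-pS2, with labels as deposited, they lie below.

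Acetyltransferase and deacetylases were listed together at part of the gained regions. All of H3K27Ac, p300, PU.1, HDAC1, HDAC2, and HDAC3 were in both IL-4 libraries at 87 gained regions (14.8%) and in both untreated libraries at 5 (0.849%), while over all merged regions the shares were 10.9% and 9.32% and over steady regions 28.1% and 25.2%. The 3 deacetylases together were listed at 132 gained regions (22.4%) with IL-4 and at 12 (2.04%) without, against 14.8% and 12.9% of all. p300 with PU.1 was listed at 389 (66%) with IL-4 and 184 (31.2%) without, against 50.4% and 44.9% of all. With IL-4 the shares of gained regions thus lay between those of all and of steady regions, and without it below both. No peak of p300 or PU.1 was listed in any untreated library at 147 gained regions (25%, against 20.9% of all). These shares are a description, without a test.

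RNAPII-pS2, the elongating form, differed in the direction opposite to RNAPII-pS5 if the labels are kept. It was listed at 30.6% and 30.4% of gained regions in the libraries labelled untreated and at 10.2% and 11.0% in those labelled IL-4 (difference −19.9 points, exact permutation test, p = 0.33), and at 0 gained regions in both libraries labelled IL-4 and neither of the others. Of 147 gained regions tested, 95 were lower and 0 higher at an unadjusted p of at most 0.05 by limma. Over all 15401 regions tested, 1696 were lower and 1624 higher. At the adjusted threshold 0 gained regions were called higher (194 over all regions) and 28 were called lower (2.14% of all regions). That count was 0 when any library was left out. With the labels exchanged, as the peak names have it, these values are the same with the opposite sign. In the separate experiment, below, RNAPII-pS2 was listed at more of these regions with IL-4. By the labels, limma called 12 of 121 lost regions tested higher and 0 lower for RNAPII-pS2 at 1 hr. The study reported that IL-4 changed RNAPII-pS2 much as it changed RNAPII-pS5 in each of its clusters of STAT6 peaks. Whether the labels or the peak names are right was not tested.

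The gained regions were not of 1 kind. At 91 of them p300 was listed in no library at 1 hr, and their values differed from those of the other 498 in several measures that the selection did not use. STAT6-type letters stood in 6.59% of their windows and in 45.4% of the other windows. PU.1 was in all 4 libraries at 1 of them and H3K27Ac in both IL-4 libraries at 2. RNAPII-pS2 was listed in both libraries labelled untreated at 73.6% of them and in both labelled IL-4 at 54.9%, against 15.3% and 1.61% of the regions with p300. Of these 91 regions, 48 (52.7%) lay downstream of the nearest start site, against 165 of 498 (33.1%). They include the region near 1700036G14Rik, that near Socs1 described below, and that near Fcgr2b, the inhibitory Fc receptor gene, where RNAPII-pS2 was 51.1 and 54.7 in the libraries labelled untreated and 12.4 and 14.2 in those labelled IL-4. These shares are a description of sets made from the p300 lists, without a test.

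The share of windows with STAT6-type letters differed between regions by when a factor was listed, a description of overlapping sets without a test. The letters stood in 66.1% of the 109 windows with PU.1 in the IL-4 libraries alone, compared with 38.6% of the 215 with PU.1 in all 4 libraries and 16.2% of the 142 with none. For HDAC3 the shares were 60%, 27.6%, and 26.3%, for H3K27Ac 57.4%, 27.5%, and 35.8%, and for p300 54.8%, 43.8%, and 6.59%, where the first share rests on 73 windows. The share also differed along the RNAPII-pS5 score, with 30.4%, 33.3%, 36.1%, and 57.8% in 4 bins of 147 or 148 regions from the lowest scores to the highest.

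Of 40 IL-4 response genes, 11 were the gene nearest to a gained region (Retnla, Klf4, Mgl2, Flt1, Edn1, Slc7a2, Vwf, Mmp12, Ear11, Plk2, and Fcgr2b), while 21 were nearest to a steady region and 3 to a lost one. These sets differ in size, with 589 gained, 6139 steady, and 918 lost regions. The counts for this and the other gene lists were not tested against other genes and are a description. Klf4 encodes a zinc finger factor of alternative polarization. Its gained region, chr4:55567059-55568021, lies at the enhancer 34 kb upstream of Klf4 that the study named, whereas the named enhancers near Hbegf and Edn1 were steady regions. RNAPII-pS5 was 27.8 and 18, p300 11.1 and 50.8 untreated and 213 and 206 with IL-4, H3K27Ac 45 and 33.7 with IL-4 alone, and PU.1 3.03 in untreated replicate 2 alone and 40.0 and 41 with IL-4. The p300 difference was called (log2 difference of 2.39 ± 0.28 (SE), adjusted p = 0.0272 by limma).

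Slc7a2 is a transporter of cationic amino acids such as arginine. At chr8:40850897-40851513, 11.1 kb upstream, H3K27Ac was listed with IL-4 alone (72.8 and 81.9), and p300 was 11.1 and 45.8 untreated and 197 and 222 with IL-4 (log2 difference of 2.47 ± 0.25 (SE), adjusted p = 0.0235 by limma). Near Mgl2, a macrophage lectin, chr11:70114339-70115265 in an LTR had p300 of 11.9 and 37.8 untreated and 227 and 208 with IL-4, and no H3K27Ac. Near Retnla, a secreted marker of alternative polarization, chr16:48831258-48832018 already had H3K27Ac of 58 and 72.2 untreated, compared with 140 and 164 with IL-4, and PU.1 of 28.9 and 25.1 untreated, compared with 92 and 66.5 with IL-4. The Vwf region, chr6:125529605-125529956, had no p300 untreated and 212 and 211 with IL-4. The Flt1 region lay in a CpG island and had no peak of H3K27Ac, p300, HDAC1, HDAC2, HDAC3, or RNAPII-pS2 in any library. The IL-4 libraries lay above the untreated ones for p300 in each of these regions except that near Flt1.

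Of 18 genes of the IL-4 receptor and JAK-STAT pathway, 4 were nearest to a gained region and 7 to a steady one. Socs1, the feedback inhibitor of Janus kinases, had the widest gained region of all, chr16:10780861-10784252, 3392 bp long and 2.97 kb downstream of its start. RNAPII-pS5 there was 19.7 and 21.3, RNAPII-pS2 61.4 and 51.2 in the libraries labelled untreated, and PU.1 17.2 and 30.4 with IL-4 alone, with no p300, H3K27Ac, or deacetylase peak. Jak2, a kinase of cytokine receptors, had p300 in untreated replicate 2 alone (no peak and 10.2) and of 183 and 190 with IL-4 at chr19:29239545-29240067, and PU.1 of 5.87 and 3.2 untreated and 60.9 and 35.9 with IL-4. Near Socs3, the inhibitor of IL-6 signaling, chr11:117976043-117976480 had p300 of 7.55 and 19.2 untreated and 85.5 and 81.2 with IL-4. Near Bcl6, a transcriptional repressor, chr16:24120858-24121277 had p300 of 30.1 and 95.4 untreated and 185 and 178 with IL-4. The Socs1 region is the exception among the 4 in having no p300.

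Of 20 macrophage lineage genes, Irf8, Csf1r, and Runx1 were nearest to a gained region (13 to a steady one), of 30 inflammatory genes Ccl3, Ccl4, and Il10 (18 to a steady one), and of 28 markers of other cells Mpo alone (3 to a steady one). Near Irf8, a myeloid transcription factor, chr8:120704262-120704598 had p300 of 4.17 and 10.3 untreated and 121 and 114 with IL-4. Near the chemokine gene Ccl3, chr11:83655635-83655953 had PU.1 of 57.4 and 51.4 untreated and 82.3 and 115 with IL-4, and HDAC2 of 14.1 and 11.5 untreated and 30.2 and 25.7 with IL-4. Near Il10, an anti-inflammatory cytokine, chr1:131042693-131043197 had H3K27Ac with IL-4 alone (97.7 and 102). The Mpo region was the narrowest of all (217 bp), with p300 of 10.6 in untreated replicate 2 alone and 11.8 and 3.81 with IL-4, and had no H3K27Ac or deacetylase peak in any library. The nearest gene is a label by distance, and none of these regions was linked to a gene by another measure.

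In the separate experiment, whose libraries took no part in the selection, RNAPII-pS5 was again listed at more of the gained regions with IL-4. The share was 12.1% and 9.0% in ctrl_ctrl, 28.0% and 30.9% in 24hIL4_ctrl, 11.7% and 11.9% in ctrl_1hLPS, and 23.1% and 22.9% in 24hIL4_1hLPS. The pretreated libraries lay above the others both without and with LPS, by 15.1 percentage points on average (exact permutation test within LPS groups, 36 arrangements, two-sided p = 0.0556, the smallest it can give). The same difference in steady regions was 1.78 points. The contrasts share control libraries. RNAPII-pS5 was listed in no library of this experiment at 256 gained regions (43.5%), in at least 1 ctrl_ctrl library at 86 (14.6%), and in all 4 pretreated and none of the other 4 libraries at 18.

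Of 241 gained regions tested, 78 were called higher and 11 lower with 24 hr of IL-4 alone by limma, where 9.34% and 7.11% of all regions were. With IL-4 before LPS, 36 were higher (5.9% of all) and 6 lower (3.54% of all), and with LPS alone 30 were higher (8.84% of all) and 21 lower (20.5% of all). No peak was listed in ctrl_ctrl at 74 of the 78 regions or in ctrl_1hLPS at 34 of the 36, so that these calls were made against the floor and their number is a description. RNAPII-pS5 in both 24hIL4_ctrl libraries and neither ctrl_ctrl library was found at 89 gained regions (15.1%, against 6.01% of all). The count of 78 was 28 and 29 without 1 or the other 24hIL4_ctrl library, 55 and 51 without a ctrl_ctrl library, and 35 with the floor set 4 times as high. The count of 36 was 13 to 15 without a library of either LPS group and 13 with the higher floor, and that of 30 was 16 with it. The share with RNAPII-pS5 in both 24hIL4_ctrl libraries was 10.8%, 15.6%, 19%, and 38.1% from the lowest bin of 1 hr scores to the highest.

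**Figure D4:**
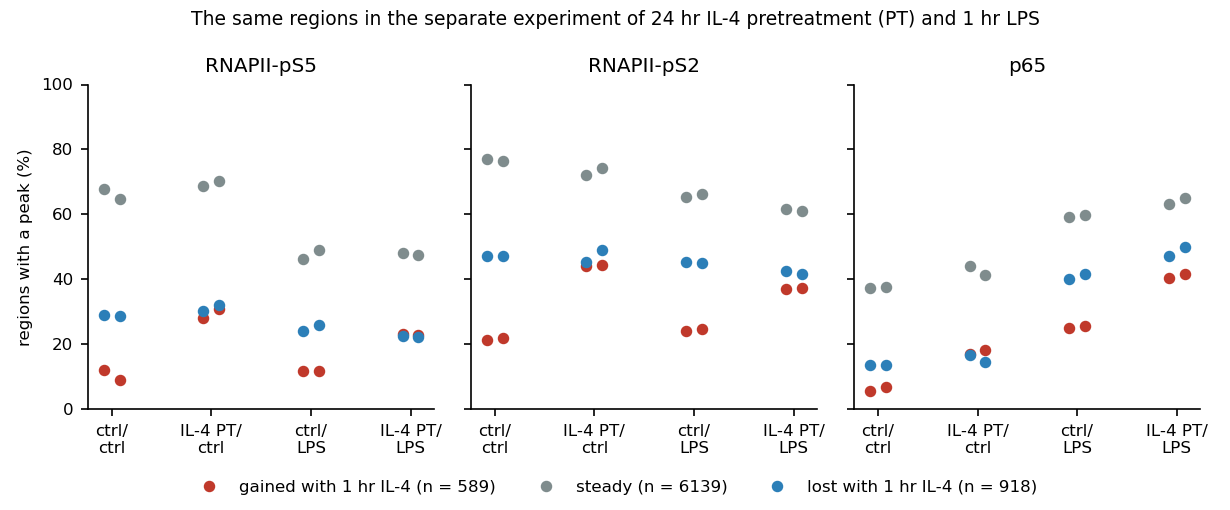
The percentage of gained (red), steady (grey), and lost (blue) regions with a peak (y axis) in each library of ctrl_ctrl, 24hIL4_ctrl (IL-4 PT/ctrl), ctrl_1hLPS (ctrl/LPS), and 24hIL4_1hLPS (IL-4 PT/LPS), for RNAPII-pS5, RNAPII-pS2, and p65. For each antibody the pretreated libraries of the gained regions lie above the matching libraries without IL-4, at 28.0% and 30.9% against 12.1% and 9.0% for RNAPII-pS5.

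The 3 gained regions with the highest mean RNAPII-pS5 score after 24 hr of IL-4 lay nearest to Ear11, Ear1, and Ang2, all of the same ribonuclease family. The Ear11 region, chr14:51253673-51254049, in an LTR of the RLTR25B type and 2.29 kb from the start site, scored 7.4 and 7.61 after 1 hr of IL-4, but 62.5 and 62.1 in 24hIL4_ctrl and 28.2 and 28.1 in 24hIL4_1hLPS, with no peak in the 4 libraries without IL-4. Near Ang2, chr14:51185522-51186256 in another RLTR25B element scored 27.7 and 29.1 in 24hIL4_ctrl and 11.8 and 6.94 in 24hIL4_1hLPS. Near Ear4, chr14:51199209-51200605 scored 17 and 16.8 in 24hIL4_ctrl and 17.8 and 13.4 in 24hIL4_1hLPS. At all 3 regions the pretreated libraries had a peak and the others had none. Near Ear1, in another part of chromosome 14, chr14:43869356-43869773 scored 40.8 and 24.8 in 24hIL4_ctrl and had no peak in the other 6 libraries. The family has near-identical copies and reads were aligned with BWA at default settings, with no filter on reads with several matches given in the sources used here, so the split between copies is uncertain.

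Other regions carried RNAPII-pS5 after 24 hr of IL-4 in several patterns. At the Gpr65 region it was 21.6 and 25.8 in 24hIL4_ctrl and listed in replicate 2 alone of 24hIL4_1hLPS (4.53), with no peak in the 4 other libraries. At the Klf4 enhancer it was 15.7 and 20.2 in 24hIL4_ctrl, 5.61 in replicate 1 alone of ctrl_1hLPS, and 9.23 and 12.7 in 24hIL4_1hLPS. At the Slc7a2 region it was 7.67 and 8.55 in 24hIL4_ctrl and 11.3 and 13 in 24hIL4_1hLPS and was not listed in the others. Slc7a2 and Klf4 thus had peaks in all 4 pretreated libraries, and Gpr65 in 3. No test is given for these regions, since the libraries without a peak carry the floor.

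Near Runx1, a lineage-determining factor of blood cells, chr16:92852251-92852626 scored 8.35 and 11.6 in 24hIL4_ctrl and 16.4 and 20.2 in 24hIL4_1hLPS and had no peak in the others. Socs1 differed from these. Its region scored 16.4 and 16.2 in 24hIL4_ctrl, 14.8 and 18.7 in ctrl_1hLPS, and 5.82 and 4.34 in 24hIL4_1hLPS, with no peak in ctrl_ctrl. With LPS, where all 4 libraries had a peak, the score was lower after IL-4 pretreatment (log2 difference of -1.92 ± 0.26 (SE), adjusted p = 0.0113, by limma).

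Regions near Mpp6, Exo5, Ear14, and Klhl25, an adaptor of a ubiquitin ligase, were named beside Ear11 by their small p for higher RNAPII-pS5 after 24 hr of IL-4, out of 10 regions that share the smallest adjusted p of limma (0.00232). At the regions named here that p was taken against the floor in ctrl_ctrl, so it served only to name them. Their scores in 24hIL4_ctrl were 16.1 and 14.1 near Mpp6, 19.7 and 17.8 near Exo5, 13.2 and 14.3 near Ear14, and 22.2 and 17.4 near Klhl25, with no peak in ctrl_ctrl, and the peak near Ear14 also covered a neighboring gained region. The 5 lower regions near Rnase10, Cfc1, Pmch, Wdr75, and Ly86 went the other way, with no peak in 24hIL4_ctrl, and were likewise named against the floor. Near Wdr75, for example, RNAPII-pS5 was 8.6 and 7.13 after 1 hr of IL-4 and 12.6 and 7.06 in ctrl_ctrl, with no peak in the other 3 groups. Near Pmch it was 8.47 and 8.82 in ctrl_ctrl alone. These 5 regions, without an RNAPII-pS5 peak in the untreated cells of the 1 hr experiment, had one in those of the separate experiment. An untreated peak of the 1 hr experiment lay 225 bp from the Wdr75 region and 832 bp from that near Rnase10. The nearest one was 12175 bp away near Ly86, 36101 bp near Cfc1, and 91964 bp near Pmch.

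**Figure D5:**
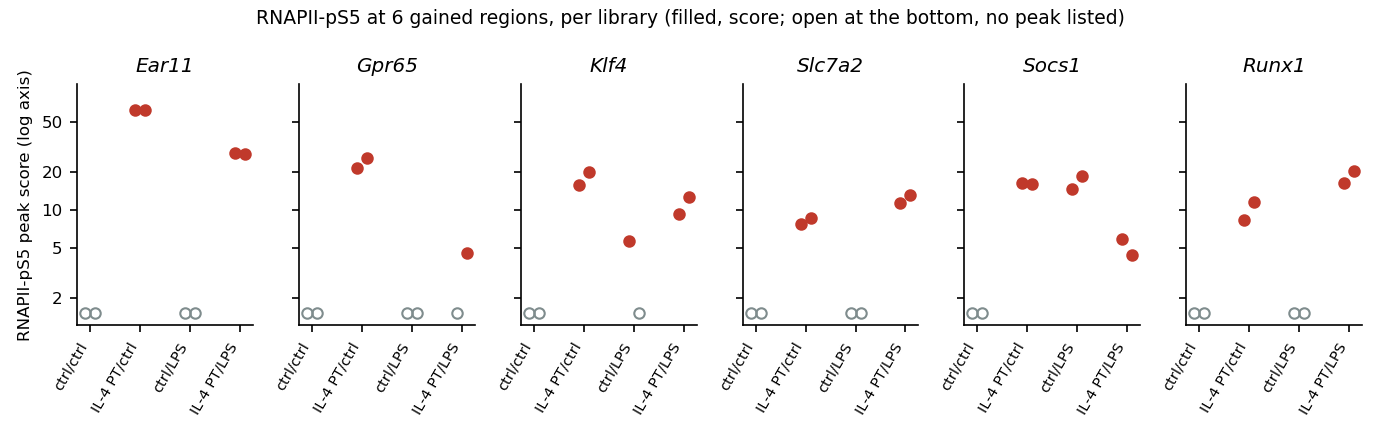
RNAPII-pS5 peak scores on a log axis (y axis) at 6 gained regions in the 8 libraries of the separate experiment, in the order ctrl_ctrl, 24hIL4_ctrl (IL-4 PT/ctrl), ctrl_1hLPS, and 24hIL4_1hLPS; filled points are scores and open points at the bottom are libraries without a peak. Ear11 reaches 62.5 and 62.1 in 24hIL4_ctrl, and Socs1 is higher in ctrl_1hLPS than in 24hIL4_1hLPS.

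RNAPII-pS2 in the separate experiment was listed at more gained regions with IL-4. The shares were 21.4% and 22.1% in ctrl_ctrl, 44.1% and 44.3% in 24hIL4_ctrl, 24.1% and 24.8% in ctrl_1hLPS, and 37.0% and 37.2% in 24hIL4_1hLPS. The pretreated libraries were 17.6 points higher on average (exact permutation test within LPS groups, two-sided p = 0.0556, the smallest it can give), whereas the share in steady regions moved by −3.96 points. Of 328 gained regions tested, limma called 127 higher with IL-4 alone (11.1% of all) and 17 lower (10.8% of all), 57 higher with IL-4 before LPS (5.1% of all) and 5 lower (4.06% of all), and 59 higher with LPS alone (11.6% of all) and 32 lower (18.3% of all). Of the 127 and the 57, 110 had no peak in ctrl_ctrl and 45 none in ctrl_1hLPS. The count of 57 was 33 and 37 without replicate 1 and 2 of 24hIL4_1hLPS. RNAPII-pS2 was in both 24hIL4_ctrl and neither ctrl_ctrl library at 120 gained regions (20.4%, against 5.56% of all). The Ear11 region scored 46.6 and 46.4 in 24hIL4_ctrl and 15.5 and 19.8 in 24hIL4_1hLPS, against 4.26 in replicate 1 alone of ctrl_ctrl and 2.54 in replicate 2 alone of ctrl_1hLPS. The Gpr65 region scored 34.6 and 47.6 in 24hIL4_ctrl and 11.7 and 12.2 in 24hIL4_1hLPS and had no peak in the others. Both antibodies were listed in both 24hIL4_ctrl libraries at 107 gained regions (18.2%).

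For RNAPII, nearly all calls of an IL-4 effect that differed with LPS involved the floor, so their counts are a description. The interaction term of limma, the effect with LPS minus that without, was called negative for RNAPII-pS5 at 50 of 241 (6.44% of all) and positive at 18 (5.98% of all), and for RNAPII-pS2 negative at 62 of 328 (5.43% of all) and positive at 13 (6.29% of all). The floor enters nearly all of these calls, since at least 1 of the 4 groups had no peak at all of the 50 and at 60 of the 62, and no LPS library had one at 37 and 29. The negative counts were 0 to 15 and 0 to 37 when 1 library was left out, and 0 and 1 with a peak required in every library.

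p65 was listed at 5.77% and 6.79% of gained regions in ctrl_ctrl, 17.1% and 18.2% in 24hIL4_ctrl, 25.1% and 25.8% in ctrl_1hLPS, and 40.4% and 41.6% in 24hIL4_1hLPS. Pretreatment was followed by a share 13.5 points higher (exact permutation test within LPS groups, two-sided p = 0.0556, the smallest it can give), against 4.82 points in steady regions. With LPS the difference was 15.5 points in gained, 7.68 in lost, 4.64 in steady, and 6.19 in all merged regions. The p65 lists held 36738 and 38955 peaks in 24hIL4_1hLPS and 26305 and 26820 in ctrl_1hLPS. Whether the length of the lists bears on these shares was not tested. Of 246 gained regions tested, limma called 67 higher and 37 lower with LPS alone, where 19.9% and 9.55% of all were. It called 32 higher with IL-4 alone (4.42% of all) and 1 lower (1.67% of all), and 58 higher with LPS after IL-4 compared with LPS alone (8.15% of all) and 4 lower (2.51% of all). Of the 32, 30 had no peak in ctrl_ctrl, and of the 58, 47 had none in ctrl_1hLPS. The 32 and the 58 fell to 0 without either ctrl_ctrl library and without either 24hIL4_1hLPS library, respectively, and the 67 was 39 and 41 without replicate 1 and 2 of ctrl_ctrl. The interaction was called positive at 14 (3.14% of all) and negative at 11 (2.77% of all), and the count of 14 was 0 when any library was left out. p65 was in both 24hIL4_1hLPS and neither ctrl_1hLPS library at 64 gained regions (10.9%, against 4.42% of all), and more often with STAT6-type letters (17.7% of 232) than without (6.44% of 357), a comparison that was not tested.

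Single regions showed p65 at its highest where both agents were given. At the Slc7a2 region p65 was 5.4 and 4.04 in 24hIL4_ctrl, 3.69 and 5.25 in ctrl_1hLPS, and 40.7 and 37.3 in 24hIL4_1hLPS (log2 difference of 2.9 ± 0.30 (SE), adjusted p = 0.0047 with LPS, by limma). At the Irf8 region it was 6.55 and 15.6 in ctrl_1hLPS and 46 and 43.2 in 24hIL4_1hLPS, and at the Klf4 enhancer 8.38 and 9.44 in ctrl_1hLPS and 22.7 and 39.9 in 24hIL4_1hLPS. At the strongest region, near Gpc1, it was 29.6 and 28.5 in ctrl_1hLPS and 57 and 59.9 in 24hIL4_1hLPS. In these 4 regions both 24hIL4_1hLPS libraries lay above both ctrl_1hLPS libraries, but the difference was not called near Irf8 (log2 difference of 1.89 ± 0.66 (SE), adjusted p = 0.156), Klf4 (log2 difference of 1.51 ± 0.51 (SE), adjusted p = 0.143), or Gpc1 (log2 difference of 0.76 ± 0.55 (SE), adjusted p = 0.508) by limma.

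Not every region did so. Near Socs3, p65 was 57 and 62.5 in ctrl_1hLPS and 20.3 and 26.8 in 24hIL4_1hLPS, a difference that was not called (log2 difference of -1.61 ± 0.79 (SE), adjusted p = 0.312, by limma). Near Ccl3 it was 56.7 and 64.5 in ctrl_1hLPS and 54.1 and 58.8 in 24hIL4_1hLPS, and these groups overlapped. RNAPII-pS2 near Ccl3 was 28.2 and 24.3 in ctrl_1hLPS and 12.1 and 12.8 in 24hIL4_1hLPS. That difference was not called either (log2 difference of -1.02 ± 0.24 (SE), adjusted p = 0.0543, by limma). Near Gpr65, p65 was 20.6 and 15.6 in 24hIL4_ctrl and 10.8 and 9.7 in 24hIL4_1hLPS, and no peak was listed without IL-4, with or without LPS.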

How the data were processed

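The files are 56 deposited peak lists of 9 antibodies, 1 per library, from independent biological replicates. The authors aligned reads to mm10 with BWA 0.7.10 and SAMtools 0.1.19, called peaks per library with MACS2 2.0.10 (q-value of at most 0.01) or, for H3K27Ac, with HOMER 4.2 findPeaks, took out blacklisted regions, and assigned HOMER annotations to the peaks, with versions from the submitters' processing notes. The deposited MACS2 score is a −log10 of a p- or q-value, as inferred from its values; 0.00484% to 0.938% of the peaks of a list score under 2. The deposited H3K27Ac value is a signal of normalized tags. No input control is stated, and depth is unknown.

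Peaks were merged over the 4 RNAPII-pS5 lists of the 1 hr experiment, and the value of a region was the highest overlapping score (at least 1 bp). Log2 values, with the lowest score of the antibody for missing peaks, were centred per library on regions listed in all libraries, and were fitted with limma 3.58.1 in R 4.3.3, tested on simulated data. Other steps used SciPy 1.17.1, pysam 0.24.0, pandas 2.3.3, NumPy 2.4.6, and matplotlib 3.10.9 in Python 3.11.15. Named regions were the 12 with the highest lower score, the highest for each listed gene, those of the 8 genes with most regions, up to 5 each way by adjusted p for RNAPII-pS5 after 24 hr of IL-4, and those at named enhancers; of the 8 genes, counts are given. Regions near Ang2, Ear4, and Ear1 were chosen after their values were seen. The regions and lists were chosen with earlier results of these data known. Alternatives were other floors, filters, centring, merging distances, windows, and leaving out libraries.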

Additional observations from a re-analysis of the deposited data

Results flagged for a closer look

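The IL-4 effect on the log2 score with LPS minus that without LPS passed the threshold of limma's interaction term (adjusted p of at most 0.05) at 14 of the values tested over 42 named regions where at least 1 LPS library had a peak. At another 15 no LPS library had a peak, so the effect with LPS rests on the imputed floor there. At 13 of the 14 neither ctrl_ctrl library had a peak, so the effect without LPS was measured against that floor. For RNAPII-pS5 the difference was −3.35 near Gpc1 (2.61 without LPS and −0.75 with LPS), −3.39 near Gpr65, −1.33 near Ear11, −5.41 near Socs1, −2.93 near 1700021F07Rik, and −2.02 near Exo5. For RNAPII-pS2 it was −3.71 near Gpc1, −4.06 near Ccl3, −1.76 near Gpr65, −4.48 near Socs1, −1.90 near 1700021F07Rik, and −2.03 near Klhl25. For p65 it was −1.99 near 1700021F07Rik and 2.24 near Mmp12. Near Mmp12 p65 was listed in the 24hIL4_1hLPS libraries alone, at 8.35 and 8.11. That region passed the filter through them and the other groups carry the floor, so its value is a description. The region near Socs1 had the largest difference for both forms of RNAPII among these, with peaks in all 4 LPS libraries. All of these differences rest on 2 libraries per group.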

How the results depend on the processing

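The number of gained regions was 1160 with intron peaks allowed and 716 to 1404 when 1 RNAPII-pS5 library was left out of the rule (1109 and 716 without untreated replicate 1 and 2, 1079 and 1404 without IL-4 replicate 1 and 2). The share of gained regions with STAT6-type letters was 32.9% in 200 bp, 50% at the highest p300 peak, and 49.4% over the whole region. In steady regions, which are wider, the shares were 6.09%, 11.5%, and 23.2%, and in lost regions 2.94%, 4.61%, and 8.39%. Counts of calls with a peak required in every library were 112 (H3K27Ac), 2 (HDAC2), 3 (HDAC3), 1 (RNAPII-pS2 at 1 hr), 0, 0, and 1 (RNAPII-pS5 with 24 hr IL-4, IL-4 before LPS, and LPS), 7, 2, and 8 (RNAPII-pS2 likewise), 2, 0, and 6 (p65 likewise), and 0, 1, and 0 for the interactions of RNAPII-pS5, RNAPII-pS2, and p65; fewer regions could be tested there. With the floor 4 times as high they were 62 (PU.1), 26, 24, and 40 (HDAC1, HDAC2, and HDAC3), 35, 13, and 16 (RNAPII-pS5), 8 and 40 (p65 with IL-4 and with LPS), and 26 and 36 (interactions of RNAPII-pS5 and RNAPII-pS2). At an unadjusted p of at most 0.05 they were 228 (PU.1), 128, 175, and 155 (HDAC1, HDAC2, and HDAC3), 95 (RNAPII-pS2 at 1 hr), 92 and 106 (RNAPII-pS2 and p65 with IL-4 before LPS), and 46 (interaction of p65). Without centring they were 0 (RNAPII-pS2 at 1 hr) and 27 (interaction of p65), and with a peak in at least 1 library 0 (RNAPII-pS2 at 1 hr).

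Leaving out 1 library gave 107 to 225 calls for H3K27Ac, 0 to 371 for p300, 0 for RNAPII-pS2 at 1 hr (0 to 0), 28 to 79 and 13 to 38 for RNAPII-pS5 with IL-4 and with IL-4 before LPS, 33 to 60 for RNAPII-pS2 with IL-4 before LPS, 0 to 34, 0 to 63, and 39 to 71 for p65 with IL-4, IL-4 before LPS, and LPS, and 0 to 15, 0 to 37, and 0 to 0 for the interactions. The lone library is then assumed to vary like the others. The difference in the share of gained regions with RNAPII-pS5 between ctrl_1hLPS and ctrl_ctrl, 1.27 points, ran from −0.255 to 2.8. Where no cause is given, the cause was not tested.

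Same-numbered replicates did not deviate together (correlations of −0.02 to 0.07 over regions). With the replicate number as a block, the counts were 0 for RNAPII-pS2 at 1 hr, 31 for the interaction of RNAPII-pS5, and 0 for that of p65, and the replicate block moved no other count by more than 1.5 times. Exchanging the labels of RNAPII-pS2 at 1 hr, added after seeing the data, turns its 28 lower calls into higher ones. Unknown depth and scores near the calling threshold limit what absence of a peak shows.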
